A study of Mus musculus with 20 samples.

Results

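MAP kinase phosphatases and Sprouty proteins are the brakes of growth factor and stress signalling. Dual-specificity phosphatases remove the activating phosphates from the threonine and tyrosine of ERK, JNK and p38 kinases, and Sprouty and Spred proteins act further upstream, between the activated receptor and RAS and RAF. Many of their genes are switched on by the pathway they inhibit, and in neurons they are known to respond to growth factors, synaptic activity and injury. The 10 genes described here were picked by symbol: Dusp1, Dusp4, Dusp5, Dusp6, Dusp8, Dusp14, Dusp16, Spry2, Spry4 and Spred1. All 10 were present in each of the 4 deposited tables, which together list 14700 genes, 13688 of them in all 4.

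The material was cortical neurons of embryonic day 15 mouse embryos, cultured for 7 days, with 5 libraries in each of 4 groups. WT cultures kept and KO cultures lacked the circular RNA ciRS-7, listed as Cdr1as, and the strain name C57BL/6N-Cdr1asem1Nikr stands beside all 20 libraries. N_WT and N_KO were held for 12 h in normal oxygen with 25 mM glucose and 0.2 mM pyruvate, and OGD_WT and OGD_KO for 12 h in 1% oxygen in the same kind of medium without these 2 additions, a culture model of ischemia called oxygen and glucose deprivation (OGD). Each culture gave 1 normoxia and 1 OGD library, which share a culture label such as WT1 and a batch label (1, 2, 3.1, 3.2 or 3.3).

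Recovered reads per library ranged from 7071506 to 16658618 over the genes of a table. Cdr1as had 5 to 16 reads in N_KO against 700 to 1365 in N_WT, and 2 to 14 in OGD_KO against 545 to 1912 in OGD_WT, and each library matched its genotype label at this gene. The 10 neuron markers summed to between 4690 and 6080 CPM in N_WT, where CPM are the reads of a gene relative to the scaled size of its library, and between 3010 and 5750 in OGD_WT. None of 7 microglia markers is listed in any table, 5 of 6 endothelial markers are listed in none, and of 7 fibroblast and mural markers only Dcn is in all 4 tables, at 2.99 CPM or less. Deviations from the group means cancelled within the labelled batches: their sum over a batch had 5.54% to 29.2% of the variance that independent libraries would give, over 12685 genes. No label names a batch adjustment, and p-values from OGD fits without a batch term may therefore be too small. Between genotypes they ran large instead: 1.81% of genes in normoxia and 1.78% under OGD had an unadjusted limma p under 0.05. For the interaction of genotype and OGD the share was 0.738%, beside about 5% of unchanged genes on simulated counts. Calls are also given from 1 fit over all 20 libraries with the 5 batch labels as a term, a fit chosen after seeing the data.

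To show what lies before the start sites of the 4 genes that changed most under OGD, the stretch from 250 to 51 bases upstream is printed for each, from RefSeq on GRCm38.p6 (mm10), 5′ to 3′ on the strand of the gene; all 4 lie on the minus strand and overlap no GENCODE M21 exon of their gene. Those of Dusp1 and Dusp8 lie within the span of a longer annotated transcript, in its intron, and those of Dusp16 and Spry2 lie outside the gene. Capitals mark the cAMP response element core TGACG, on either strand, and the cores ACGTG and GCGTG that hypoxia-inducible factors can bind.
Dusp1, chr17:26508523-26508722: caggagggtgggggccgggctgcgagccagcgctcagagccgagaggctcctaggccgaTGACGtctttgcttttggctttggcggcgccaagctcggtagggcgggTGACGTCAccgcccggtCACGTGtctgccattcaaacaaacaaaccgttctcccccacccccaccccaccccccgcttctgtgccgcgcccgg
Dusp8, chr7:142095335-142095534: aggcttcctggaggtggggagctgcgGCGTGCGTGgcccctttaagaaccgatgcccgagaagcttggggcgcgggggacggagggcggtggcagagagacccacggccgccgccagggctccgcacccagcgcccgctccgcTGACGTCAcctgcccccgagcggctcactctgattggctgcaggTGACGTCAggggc
Dusp16, chr6:134792679-134792878: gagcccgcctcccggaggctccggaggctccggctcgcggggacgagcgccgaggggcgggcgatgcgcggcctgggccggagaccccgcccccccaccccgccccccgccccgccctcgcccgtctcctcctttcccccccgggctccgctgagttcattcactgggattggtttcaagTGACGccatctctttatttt
Spry2, chr14:105896870-105897069: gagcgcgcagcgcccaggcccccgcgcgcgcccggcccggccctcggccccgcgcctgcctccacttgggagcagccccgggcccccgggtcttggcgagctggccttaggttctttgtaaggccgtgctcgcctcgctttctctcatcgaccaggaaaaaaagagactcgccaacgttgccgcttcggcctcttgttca

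The full cAMP response element TGACGTCA stands once in the promoter of Dusp1, 143 bases before the start, beside a further core TGACG 191 bases before it, and at 2 places in that of Dusp8, 107 and 63 bases before it. It occurs in 1.79% of the 32851 RefSeq promoters of the same 300 bases, 250 before to 50 after the start. Dusp16 holds only the core TGACG, 70 bases before the start, which 20.8% of promoters hold on 1 strand or the other. Dusp1 also holds the palindrome formed by ACGTG read on both strands, and ACGTG occurs in 19.6% of promoters. Dusp8 holds GCGTG at 2 overlapping places and Spry2 holds it once, 3 bases after the start, so that its printed stretch holds no match. GCGTG occurs in 32.4% of promoters. Of the other members with a promoter entry, Dusp5 holds 2 adjacent CArG boxes, the serum response element core, 82 and 72 bases before its start (1.63% of promoters), while Dusp6 holds none of the motifs searched. The cores are not particular to the 4 printed genes: Dusp5 holds the cAMP response element core once and 3 of the hypoxia-inducible factor cores, Spred1 holds 3 of the latter, and Dusp14 holds 2. The AP-1 site TGANTCA (7.81% of promoters) and the ATF4 composite site TGATGNAA (3.97%) were found in none of the 8 members with an entry. The members with an entry are all but Dusp4 and Spry4.

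In normoxia the 10 genes spanned a wide range of levels. Per kilobase of exon, Dusp8 was the highest in N_WT at 26.4 ± 3.48 CPM per kb (SD, n = 5), followed by Spred1 at 16.5 ± 0.954, Spry2 at 15.5 ± 1.67 and Dusp4 at 12.6 ± 1.05. Dusp6 stood at 8.04 ± 0.968, Spry4 at 5.09 ± 0.391 and Dusp1 at 2.9 ± 0.974. Dusp5 at 1.88 ± 0.318 and Dusp16 at 1.82 ± 0.0858 differed by less than their SD, and Spred1 and Spry2 by less than the SD of Spry2 only. Dusp14 was the lowest at 0.743 ± 0.154. In OGD_WT Dusp8 stayed on top at 46.1 ± 6.63, Spry2 at 33.2 ± 5.1 stood above Spred1 at 22.3 ± 4.74, and Dusp1 (9.59 ± 2.09), Dusp16 (9.33 ± 1.51) and Dusp6 (9.88 ± 2.43) lay within 1 SD of each other. In N_KO the order began with Dusp8 at 26.4 ± 1.14 and Spred1 at 17 ± 1.57, followed by Spry2 at 15.7 ± 1.63 and Dusp4 at 13.6 ± 2.36.

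**Figure D1:**
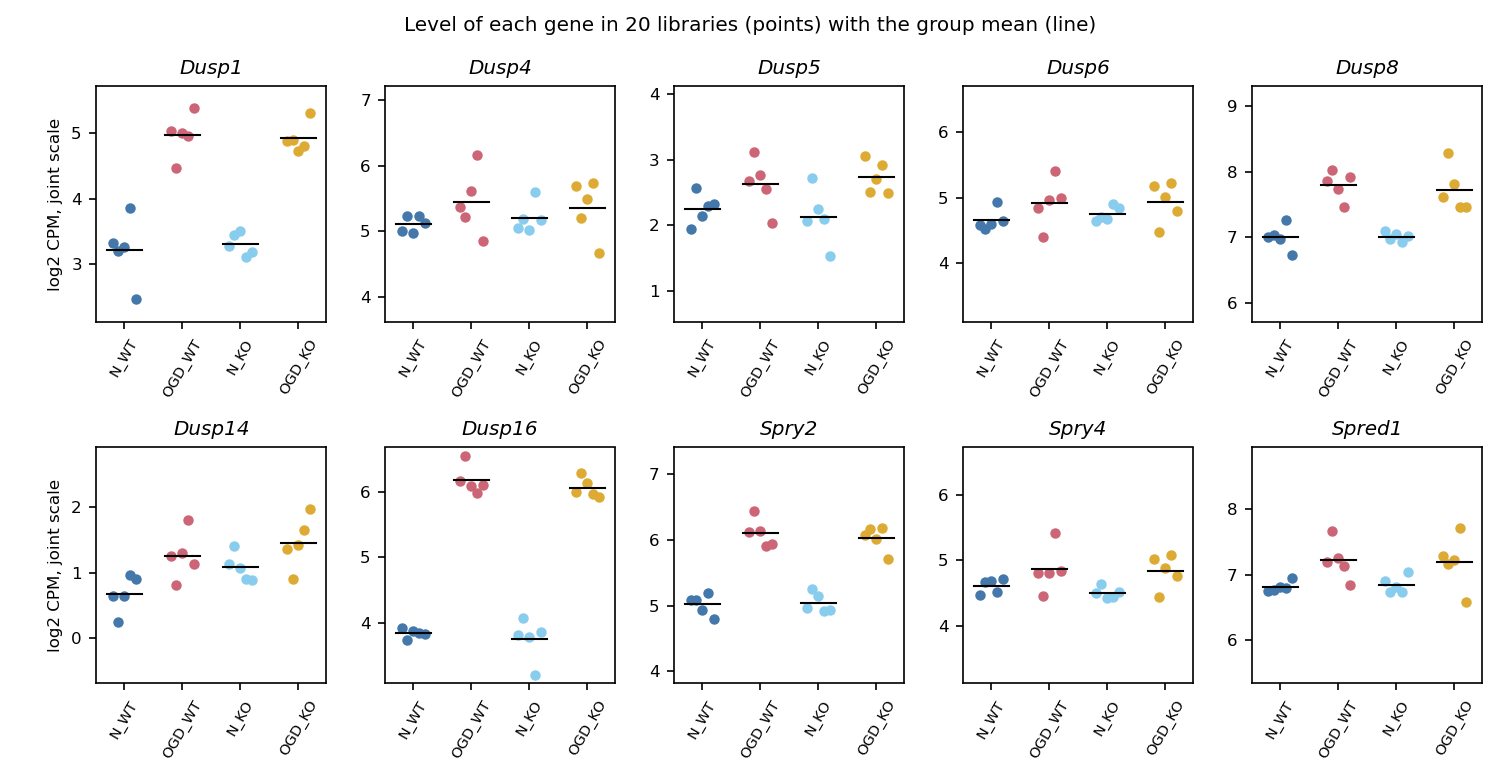
Level of each of the 10 genes in the 20 libraries, as log2 CPM on the joint scale; each point is 1 library, each line the mean of the 5 libraries of a group, and every panel spans the same number of log2 units. For Dusp1, Dusp8, Dusp16 and Spry2 every OGD library lies above every normoxia library of the same genotype, and for the other 6 genes the groups overlap.

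Under OGD 4 of the genes rose in WT and in KO cultures: Dusp16, Dusp1, Spry2 and Dusp8. Dusp16 rose 4.96-fold in WT and 4.9-fold in KO, Dusp1 3.28-fold and 3.02-fold, Spry2 2.11-fold and 1.99-fold, and Dusp8 1.73-fold and 1.65-fold. None of the 10 genes was called lower. In WT 6 of 10 were called higher (limma with Benjamini-Hochberg adjustment, adjusted p under 0.05), against 21.6% of all 14235 genes called higher, 22.8% called lower and 44.3% called in all. In KO 5 of 10 were called higher, against 21% of 14375 genes higher, 19.9% lower and 40.9% in all. The median log2 fold change of the 10 genes was 0.46 in WT and 0.47 in KO, beside -0.03 and 0 over all genes. The 10 genes were chosen with earlier results of these data known, so their counts and medians are a description and no test of the set. With the batch labels as a term, 4 were called in WT and 5 in KO, all higher. In that fit 2331 of 13688 genes were called higher and 2409 lower in WT, and 2316 and 2215 in KO.

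Among the phosphatases that act on the stress kinases JNK and p38, Dusp16 (MKP-7; chr6:134715468-134792625, minus strand, mm10) changed most. Its level was 14.9, 13.1, 14.5, 14.2 and 14.1 CPM in the 5 N_WT libraries and 71.7, 93, 67.6, 62.8 and 68.6 in OGD_WT, in the order of the culture numbers. In KO it was 13.8, 16.6, 13.6, 9.05 and 14.4 CPM in normoxia and 63.8, 77.8, 69.6, 62.5 and 60.1 under OGD. The lowest OGD library, at 60.1 CPM, lay far above the highest normoxia library, at 16.6 CPM. The log2 fold change was 2.31 (SE 0.14, limma adjusted p = 8.64e-11) in WT and 2.29 (SE 0.16, adjusted p = 9.43e-09) in KO, at rank 63 of 14235 and 62 of 14375 genes by log2 fold change. It was positive in 5 of 5 cultures of each genotype, from 2.13 to 2.81 in WT and from 2.05 to 2.77 in KO.

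Dusp1 (MKP-1, chr17:26505590-26562128, minus strand), the inducible nuclear phosphatase that acts on p38, JNK and ERK, came second among the 10 genes. It measured 9.87, 9.02, 9.39, 14.4 and 5.33 CPM in N_WT and 32.7, 21.9, 31.8, 31 and 41.4 in OGD_WT. In N_KO it measured 9.49, 10.7, 11.2, 8.41 and 8.92 CPM and in OGD_KO 29.1, 29.5, 26.2, 27.7 and 39.5. N_WT replicate 5 was low and replicate 4 high, and the SD in N_WT, 3.23 CPM, was larger than the 1.19 CPM of N_KO, but no normoxia library reached the lowest OGD library, at 21.9 CPM. The log2 fold change was 1.71 (SE 0.2, limma adjusted p = 1.13e-06) in WT and 1.6 (SE 0.15, adjusted p = 2.56e-07) in KO. The changes of the single cultures ran from 1.1 to 2.92 in WT and from 1.21 to 2.12 in KO.

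Dusp8 (chr7:142079490-142095843, minus strand), a JNK and p38 phosphatase that is abundant in brain, rose less but from the highest level of the set. It measured 128, 131, 126, 153 and 106 CPM in N_WT and 232, 261, 212, 176 and 241 in OGD_WT. In N_KO the 5 libraries held close together at 136, 126, 132, 121 and 129 CPM, and in OGD_KO they spread over 196, 312, 224, 175 and 176 CPM, with replicate 2 the highest. The log2 fold change was 0.79 (SE 0.15, limma adjusted p = 0.000226) in WT and 0.72 (SE 0.16, adjusted p = 0.00185) in KO, and it was positive in 5 of 5 cultures of each genotype. The call in KO was lost when reads were scaled by library totals (0.43, adjusted p = 0.0561) and in the 3 batch 3 cultures alone (0.77, adjusted p = 0.0972). Groups of OGD and normoxia libraries did not overlap for Dusp16, Dusp1, Dusp8 and Spry2 in either genotype, 4 of 10 members, beside 13.9% of all genes separated upward in WT and 13.4% in KO.

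Of Dusp5, Dusp6 and Dusp4, whose products act on ERK, only Dusp5 was called, and only in KO. Dusp5, a nuclear ERK phosphatase, had 37 to 86 reads in N_WT and 39 to 96 in OGD_WT, and its log2 fold change was 0.35 in WT (limma adjusted p = 0.125) and 0.58 in KO (adjusted p = 0.0201). Leaving out 1 culture, the WT value ranged from 0.27 without replicate 1 to 0.51 without replicate 5, where it passed (adjusted p = 0.0171). The KO call, from a median of 4.1 CPM in normoxia to 6.38 under OGD, held with the batch labels as a term (adjusted p = 0.0424). It was lost without replicate 1 (adjusted p = 0.109), replicate 3 (0.0527) or replicate 4 (0.0766), in the 3 batch 3 cultures (0.283) and with total-read scaling (0.215). Exons of Dusp5 share 547 bases with an antisense gene, and the strand setting of the counting is not given in the sources used here, so reads of the 2 genes cannot be told apart. Dusp6 (MKP-3), the cytoplasmic ERK phosphatase, ranged from 22.8 to 30.5 CPM in N_WT and from 21.1 to 42.2 in OGD_WT, with log2 fold changes of 0.26 in WT (adjusted p = 0.208) and 0.18 in KO (adjusted p = 0.35). Dusp4 (MKP-2), a nuclear phosphatase of ERK and JNK, ranged from 31.4 to 37.6 CPM in N_WT and from 28.8 to 71.6 in OGD_WT, a wider spread with replicate 4 the highest. Its log2 fold changes were 0.32 in WT (limma adjusted p = 0.16) and 0.16 in KO (adjusted p = 0.526), and the groups overlapped. Leaving out 1 culture, the WT value ranged from 0.17 without replicate 4 (adjusted p = 0.398) to 0.47 without replicate 5, where it passed (adjusted p = 0.0116), and the KO value from 0.04 without replicate 1 to 0.32 without replicate 5. In WT the 95% intervals ran from -0.03 to 0.74 for Dusp5, from -0.08 to 0.6 for Dusp6 and from -0.06 to 0.71 for Dusp4.

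Dusp14 (MKP-6), a small phosphatase without the kinase-binding domain of the other members, was the least abundant, with 13 to 36 reads in each normoxia library and 17 to 34 in each OGD library. Its median was 1.38 CPM in N_WT, 2.2 in OGD_WT, 1.93 in N_KO and 2.49 in OGD_KO, and the groups overlapped. The log2 fold change was 0.52 in WT (SE 0.2, limma adjusted p = 0.0378) and 0.35 in KO (SE 0.19, adjusted p = 0.148). The WT call was lost with the batch labels as a term (adjusted p = 0.0735), with the batch as a covariate (0.051), with total-read scaling (0.225), and without replicate 1, which leaves the batch 3 cultures (0.102), replicate 3 (0.139) or replicate 4 (0.0628), while the KO value ranged from 0.19 without replicate 5 (adjusted p = 0.481) to 0.55 without replicate 2, where it passed (adjusted p = 0.0257).

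Of the Sprouty and Spred genes, whose products block RAS activation below receptor tyrosine kinases, Spry2 (chr14:105891947-105896819, minus strand) rose. It measured 33.8, 33.8, 30.4, 36.5 and 27.5 CPM in N_WT and 69.4, 86.4, 70, 59.8 and 60.9 in OGD_WT. In N_KO it measured 31, 37.8, 35.1, 30.1 and 30.4 CPM and in OGD_KO 67.5, 71.5, 64.8, 72.6 and 52.4. All OGD libraries lay above all normoxia libraries. The log2 fold change was 1.08 (SE 0.15, limma adjusted p = 5.57e-06) in WT and 0.99 (SE 0.14, adjusted p = 2.42e-05) in KO, with single cultures from 0.71 to 1.35 and from 0.78 to 1.27.

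Spry4 did not pass the test in either genotype. It ranged from 21.9 to 26 CPM in N_WT and from 21.8 to 42.5 in OGD_WT, with replicate 4 the highest and replicate 2 the lowest under OGD. Its log2 fold changes were 0.25 in WT (limma adjusted p = 0.214) and 0.33 in KO (adjusted p = 0.0696), and the groups overlapped. Leaving out 1 culture, the WT value ranged from 0.09 without replicate 4 (adjusted p = 0.607) to 0.36 without replicate 2 (adjusted p = 0.0823), and the KO value from 0.26 without replicate 4 to 0.46 without replicate 2, where it passed (adjusted p = 0.0112). Spred1, which brings the RAS-inactivating protein neurofibromin to the membrane, ranged from 107 to 123 CPM in N_WT and from 115 to 203 in OGD_WT. Its log2 fold change was 0.4 in WT (SE 0.15, limma adjusted p = 0.0346) and 0.35 in KO (SE 0.18, adjusted p = 0.118). The WT call was lost with the culture as a block (adjusted p = 0.0526), with the batch labels as a term (0.0961), with the batch as a covariate (0.0513), with total-read scaling (0.524), and without replicate 1, which leaves the batch 3 cultures (0.135), replicate 2 (0.103) or replicate 3 (0.151). In KO, where OGD replicate 5 was the lowest library at 95.2 CPM, the value ranged from 0.19 without replicate 4 (adjusted p = 0.372) to 0.56 without replicate 5, where Spred1 passed (adjusted p = 0.00393).

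**Figure D2:**
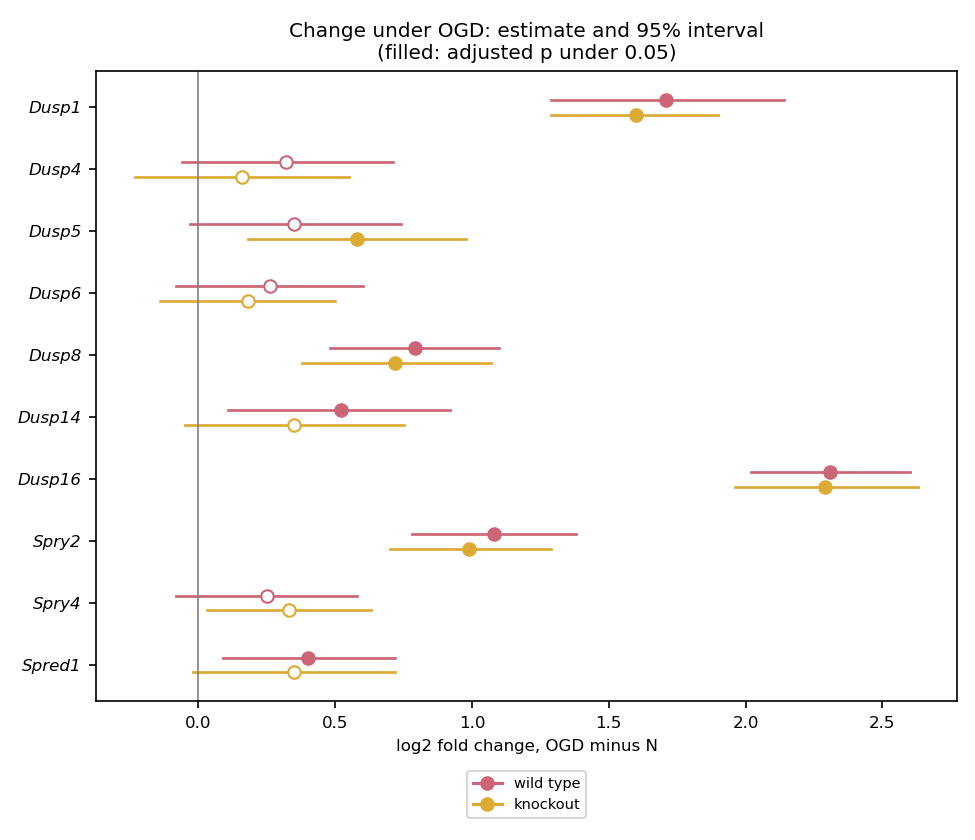
Log2 fold change of OGD minus normoxia for each gene with its 95% interval, in wild type (red) and knockout (yellow) cultures, 5 against 5 libraries each; filled points have a limma adjusted p under 0.05. Dusp16, Dusp1, Spry2 and Dusp8 have intervals above 0 in both genotypes, led by Dusp16 at 2.31 and 2.29.

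Batch 3, with the labels 3.1 to 3.3 joined, holds 4 WT and 3 KO cultures. Within it Dusp16 changed by 2.33 in WT and in KO, Dusp1 by 1.72 and 1.74, Spry2 by 1.09 and 0.99 and Dusp8 by 0.78 and 0.77 on the log2 scale. Batch 1 holds 1 culture per genotype, in which Dusp16 changed by 2.25 and 2.19, Dusp1 by 1.71 and 1.6, Spry2 by 1.04 and 1.12 and Dusp8 by 0.85 and 0.53. Batch 2 holds only KO culture 3, in which these 4 genes changed by 2.34, 1.21, 0.88 and 0.77 in that order. With reads scaled by library totals, which lowers the median of all genes to -0.3 in WT and -0.28 in KO, Dusp16 stood at 2.05 and 2.03, Dusp1 at 1.46 and 1.33, Spry2 at 0.8 and 0.71 and Dusp8 at 0.51 and 0.43. Under that scaling 4 members were called in WT and 3 in KO, and the calls over all genes turned from 3069 higher and 3244 lower to 1625 and 5744 in WT, and from 3021 and 2863 to 1479 and 5289 in KO. In bulk RNA, fewer cells of a type and less RNA per cell cannot be told apart.

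Some markers of other cell types moved along with OGD. The 7 listed astrocyte markers summed to 1030 to 1340 CPM in N_WT and 1700 to 2100 in OGD_WT, and to 834 to 1500 in N_KO and 1380 to 2210 in OGD_KO. The 7 markers of progenitor and dividing cells summed to 592 to 780 CPM in N_WT and 993 to 1590 in OGD_WT, and to 563 to 869 and 1170 to 1580 in KO. The 10 neuron markers summed to 5260 to 5470 CPM in N_KO and 3190 to 4600 in OGD_KO. Of the astrocyte markers 4 were called higher and 1 lower in WT and 3 and 0 in KO, of the progenitor and dividing cell markers 4 and 1 and 4 and 0, and of the neuron markers 6 were called lower in each genotype. The shares over all genes were 21.6% higher and 22.8% lower in WT, and 21% and 19.9% in KO. The markers of a list did not all move alike. In WT the dividing cell gene Mki67 rose by 1.25, Pax6 (0.13) and Nes (0.32) were not called, and Eomes was called lower at -0.48. Among astrocyte markers in WT, Slc1a3 rose by 1.08, Aqp4 (0.05) was not called, and Gfap was called lower at -0.47. The 6 listed oligodendrocyte lineage markers summed to 116 to 194 CPM in N_WT and 105 to 260 in OGD_WT, and to 114 to 180 in N_KO and 134 to 201 in OGD_KO. Of them 1 was called higher and 2 lower in WT, near the shares over all genes. In KO 3 were called higher and 0 lower, where total-read scaling gave 0 and 3, beside 1479 and 5289 of 14375 genes. Kdr, the 1 endothelial marker listed in both OGD comparisons, was called higher by 0.6 in WT (limma adjusted p = 0.0311) and 1.11 in KO (adjusted p = 0.000478), from a mean log2 CPM of 0.24 in N_WT and 0.13 in N_KO. Scaled by library totals, Kdr stood at 0.5 in WT and was not called, and at 1.09 in KO, where it was. The part of these cell types in the changes of Dusp16, Dusp1, Spry2 and Dusp8 was not tested.

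No member differed between the genotypes beyond the spread of the libraries. In normoxia 0 of 10 were called for N_KO against N_WT, beside 0.0353% of 14152 genes, and none had an unadjusted limma p under 0.05, beside 1.81% of genes. Under OGD 0 of 10 were called for OGD_KO against OGD_WT, beside 0.0282% of 14185 genes, again with no unadjusted p under 0.05, beside 1.78%. The shares of 1.81% and 1.78% lay under the 4.91% of unchanged genes that simulated counts gave for OGD_WT against N_WT. These p-values therefore ran large, and few calls were to be expected. The groups overlapped for all 10 members in both comparisons, while 0.325% of genes separated in normoxia and 0.345% under OGD. The estimate farthest from 0 was that of Dusp14 in normoxia, with a log2 difference of 0.38 (95% interval -0.01 to 0.76, limma adjusted p = 1). It rests on 13 to 20 reads in N_WT and 16 to 36 in N_KO. For Dusp16 the difference was -0.09 in normoxia (95% interval -0.4 to 0.23) and -0.12 under OGD (-0.43 to 0.18). For Dusp1 it was 0.08 (-0.32 to 0.49) and -0.05 (-0.41 to 0.31), and for Spry2 0.03 (-0.24 to 0.29) and -0.08 (-0.39 to 0.24). For Dusp8 the values were 0.01 (-0.25 to 0.27) and -0.08 (-0.45 to 0.29). The other 5 genes lay between -0.11 and 0.11 in both comparisons.

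The response to OGD was also compared between the genotypes directly. For the interaction of genotype and OGD, fitted with limma over 20 libraries with the culture as a block, 0 of 10 members were called, and 0 (0%) of 13688 genes, of which 101 (0.738%) had an unadjusted p under 0.05. On simulated counts 5% of unchanged genes fell under 0.05 in this fit. Its p-values on these data therefore ran large, and the absence of calls says little. The estimates of the members ran from -0.2 for Dusp14 to 0.23 for Dusp5, and that of Dusp5 from 0.07 without WT replicate 5 to 0.44 without KO replicate 2. For Dusp16 the response differed by -0.02 (95% interval -0.49 to 0.45), for Dusp1 by -0.13 (-0.73 to 0.47), for Spry2 by -0.09 (-0.53 to 0.34) and for Dusp8 by -0.08 (-0.56 to 0.4). The widest intervals reached -0.88 for Dusp14 and 0.88 for Dusp5, and equal responses were not shown.

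**Figure D3:**
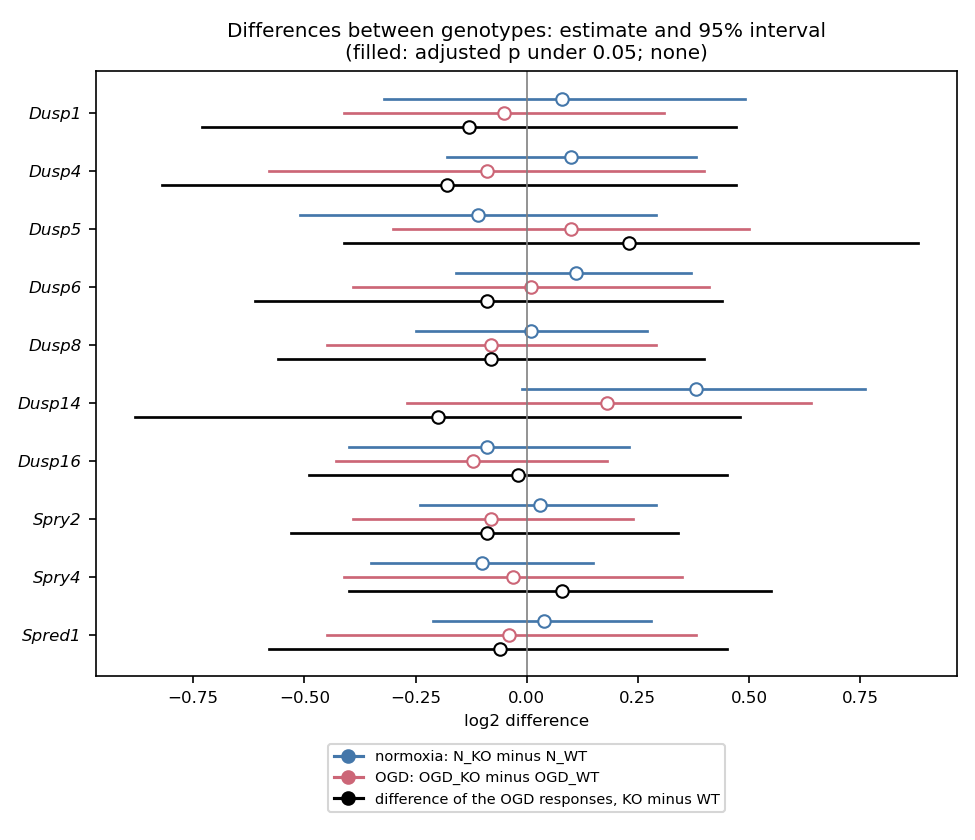
Log2 difference between genotypes with its 95% interval for each gene, in normoxia (blue), under OGD (red) and for the difference of the OGD responses (black); no point has an adjusted p under 0.05. All 30 intervals include 0, and the estimate farthest from 0 is that of Dusp14 in normoxia, at 0.38.

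The relatives of these genes did not all follow them. Of the other MAP kinase phosphatases, Dusp10 (MKP-5), which acts on JNK and p38, rose by 1.53 in WT and 1.82 in KO on the log2 scale, and the ERK phosphatase Dusp7 fell by 0.72 and 0.68. Apart from the member Dusp14, called higher in WT at 0.52 and standing at 0.35 in KO, 9 atypical dual-specificity phosphatases were measured in WT. Of these 0 were called higher and 6 lower, with a median of -0.76, beside 21.6% of all genes higher and 22.8% lower. In KO 0 and 5 of 10 were called, with a median of -0.52, beside 21% and 19.9%. Dusp18 (-1.14 in WT, -1.13 in KO), Dusp22 (-1.07, -0.93) and Dusp19 (-0.97, -0.58) changed most among them. With total-read scaling the lower calls numbered 8 and 6, beside 5744 of 14235 genes called lower in WT and 5289 of 14375 in KO. Of the 3 other Sprouty and Spred genes measured, Spry1 rose by 0.91 and 0.89. Spred3, named after its values were seen, was called lower in WT, at -0.57, and stood at -0.39 in KO (limma adjusted p = 0.0526). With total-read scaling 1 of the 3 was called higher and 2 lower in each genotype.

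Further upstream, of 15 growth factor receptor genes 7 were called higher and 4 lower in WT, and 5 and 2 in KO. Over all genes 21.6% were called higher and 22.8% lower in WT, and 21% and 19.9% in KO. The FGF receptors Fgfr2 (1.45 in WT, 1.16 in KO) and Fgfr3 (1.04, 1.02) rose, and the GDNF family receptor Ret fell by 1.53 and 1.19. Of 13 ligand genes 4 rose and 4 fell in each genotype, with Fgf2 at 0.77 and 0.98, Fgf9 at -1.29 and -1.56 and Pdgfb at -0.63 and -0.98. Fgf2 and Pdgfb were low: in WT the mean log2 CPM was 0.5 in normoxia and 1.27 under OGD for Fgf2, and 0.7 and 0.07 for Pdgfb. With total-read scaling the receptors gave 5 higher and 5 lower calls in WT and 4 and 3 in KO, and the ligands 2 and 7 and 2 and 5. That scaling called 1625 of 14235 genes higher and 5744 lower in WT, and 1479 and 5289 of 14375 in KO. With the batch labels as a term 10 ligands were measured in all tables, of which 2 were called higher and 1 lower in each genotype. That fit called 2331 of 13688 genes higher and 2409 lower in WT, and 2316 and 2215 in KO.

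In the RAS-ERK cascade 1 of 22 genes was called higher and 6 lower in WT, and 2 and 6 in KO, beside 44.3% and 40.9% of all genes called in either direction. The adaptor Gab1 rose by 1.17 and 1.23, while the scaffold Ksr2 (-1.09, -1.04) and the ERK-activated kinase gene Rps6ka3 (-0.9, -0.74) fell. In the JNK and p38 cascades 1 of 19 was called higher and 3 lower in WT, and 2 and 5 in KO. The kinase gene Map3k1, upstream of JNK, rose by 1.26 and 1.1, and Map2k4, which activates JNK, stood at -0.66 and -0.64 and the JNK scaffold gene Mapk8ip2 at -0.7 and -0.63, all called. With total-read scaling the RAS-ERK genes gave 1 higher and 12 lower calls in WT and 1 and 13 in KO, and the JNK and p38 genes 1 and 9 and 1 and 8. Among all genes that scaling called 1625 of 14235 higher and 5744 lower in WT, and 1479 and 5289 of 14375 in KO.

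Other inhibitors and targets of the pathway were read beside the members. Of 10 other inhibitors of receptor, RAS and ERK signalling, 1 rose and 3 fell in each genotype. Among all genes 21.6% were called higher and 22.8% lower in WT, and 21% and 19.9% in KO. With total-read scaling 1 inhibitor was called higher and 5 lower in WT and 1 and 4 in KO. That scaling called 1625 of 14235 genes higher and 5744 lower in WT, and 1479 and 5289 of 14375 in KO. The tyrosine phosphatase genes Ptprr (-1.67, -1.77) and Ptpn5 (-0.78, -0.74), whose products dephosphorylate ERK in neurons, fell, and Lrig1, a negative regulator of EGF receptors, rose by 0.92 and 0.86. Of 7 ERK-responsive transcription factors and targets, 4 were called higher in WT and 3 in KO, and 0 lower. Phlda1 stood at 0.76 and 0.71, Myc at 0.66 and 0.61 and Epha4 at 0.61 and 0.49. The others, named after their values were seen, did not all rise. Etv4 was called in WT (0.64) but not in KO (0.11). Etv5 (0.01, -0.2), Etv1 (0.53, 0.46) and Ccnd1 (0.17, 0.29) were not called in either genotype. With total-read scaling 3 were called higher in WT and 1 in KO, and Epha4 (0.33, adjusted p = 0.0773, and 0.2, adjusted p = 0.265) was then not called in either genotype, nor Myc in KO (0.33, adjusted p = 0.141).

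**Figure D4:**
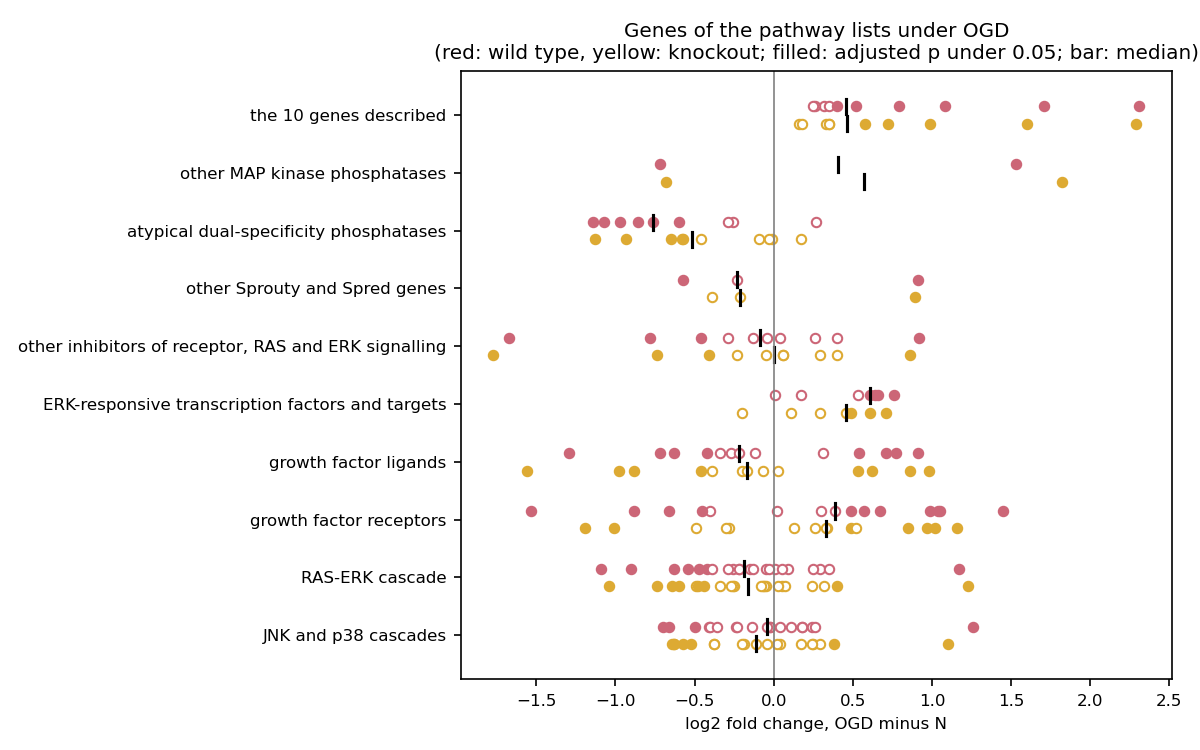
Log2 fold change of OGD minus normoxia for the 10 genes and for each gene of 9 pathway lists, in wild type (red) and knockout (yellow); filled points have a limma adjusted p under 0.05 and black bars are medians. The 10 genes have medians of 0.46 and 0.47, and the atypical dual-specificity phosphatases, listed without the member Dusp14, medians of -0.76 and -0.52.

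The genes whose pattern over the 20 libraries was most like that of each member were found by the root mean square difference of centred log2 CPM among 12684 other genes with a mean of at least 1. For Dusp16 these were Btg3 (0.226 log2 units) and Kif18a (0.263), and for Dusp1 Serpinh1 (0.283) and Snhg12 (0.286). For Spry2 they were Sun2 (0.137) and Ect2 (0.148), and for Dusp8 Zfp317 (0.116) and Uhrf2 (0.154). Among the less changed members, Dusp6 was nearest Vps37a (0.126) and Reln (0.128), Spry4 nearest Pms2 (0.126) and Asxl2 (0.136), and Spred1 nearest Cdc27 (0.12) and Chic2 (0.125). Dusp4 was nearest Mpp6 (0.16) and Acbd3 (0.172), Dusp5 nearest Vps26a (0.189) and Bloc1s4 (0.197), and Dusp14 nearest Hace1 (0.161) and Prune2 (0.214).

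The members also varied among themselves within the groups. Across the 20 libraries, after subtracting the group means, Dusp6 and Spry4 had a correlation of 0.81, and Spry4 was the 4th nearest gene to Dusp6 by pattern, at 0.158 log2 units. Dusp8 and Spry4 had a correlation of -0.76 and Dusp8 and Dusp14 one of -0.68. Dusp16 and Spry2 had 0.57, and Dusp1 and Dusp16 had -0.1. These values share libraries, depth and batch and are given as a description. The replicates that stood highest for Spry4 under OGD, WT replicate 4 and KO replicate 4, were also highest for Dusp6 and were lowest for Dusp8.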

How the data were processed

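RNA of 20 libraries from 10 cultures was sequenced with a strand-marking total RNA kit, per the labels' protocols; mm10 is named per the submitters' processing notes, and the aligner, counting, scaling and strand setting are not given in the sources used here. The authors deposited 4 tables of log2 CPM, 1 per comparison, with 10 libraries each and 14152 to 14375 genes. From the values, the lowest and highest value of each gene and group had been clipped at the 10th and 90th percentile (weights 0.6 and 0.4). This was undone, after which at least 99.9% of values up to 500 reads gave whole reads within 0.05 reads, beside 45.5% to 92.8% as deposited.

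Each table was fitted with limma 3.58.1 in R 4.3.3 (intensity trend, no block, two-sided), Benjamini-Hochberg adjusted over all genes of the table. The interaction used recovered reads of 13688 genes on 1 joint log2 scale (prior count 2, the authors' scaling recovered to within 0.0137 log2) and the culture as a duplicateCorrelation block (-0.189). CPM values printed per library are on that scale, and fold changes are on the log2(CPM) scale with the authors' prior count, which understates changes of low genes such as Dusp14. Same-numbered normoxia and OGD libraries carry the same culture label; their deviations correlated at -0.792 to 0.033. On simulated counts for OGD_WT against N_WT (14235 genes), the fit recovered 83% of changes of 1 log2 unit and 99% of 2. False calls made up 6.19% of its calls, beside 26.5% with the clipping left in. The interaction fit recovered 71% and 96% on simulated counts, with 5.65% false calls. Simulated libraries were independent and few genes changed, so these shares do not cover libraries whose deviations cancel within batches. Libraries of a group are labelled as biological replicates.

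All members, the 3 genes per list with the largest mean change among those called in both OGD comparisons, and the 2 most alike genes per member are named. The members and lists were chosen with earlier results of these data known. Total-read scaling and the joint fit with 5 batch labels were chosen after seeing the data. RefSeq promoters (GRCm38.p6) matched 8 of 10 members by symbol. Exon lengths and coordinates are from GENCODE M21.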

Additional observations from a re-analysis of the deposited data

How the results depend on the processing

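In WT, Dusp16, Dusp1, Spry2 and Dusp8 kept direction and call under every alternative run, as did Dusp16, Dusp1 and Spry2 in KO. Members called in WT, 6, ranged from 4 to 8 leaving out each replicate, while all genes called, 6313, ranged from 4313 to 6993. In KO members called, 5, ranged from 4 to 7, and all genes called, 5884, from 4025 to 5923. In KO 8 members were called on the values as deposited, beside 8024 genes, and 3 with total-read scaling, beside 6768. The batch 3 cultures of KO gave 3 members and 2341 genes. With the culture number as a replicate block Spred1 alone changed its call, in WT, at 0.4 (adjusted p = 0.0526).

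With total-read scaling the OGD change became -0.02 for Dusp6 and -0.03 for Spry4 in WT, and -0.13 for Dusp4 and -0.1 for Dusp6 in KO; in batch 3 Dusp4 was -0.11 in KO. That scaling lowers the median of all genes; other causes were not tested.

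Genes called between genotypes in normoxia, 5, were 9 on the values as deposited, 3 with mean log2 CPM of at least 1, 3 with the replicate block, 2 in batch 3, 2 with 5 batch labels and 3 to 5 leaving out a library, the lowest without N_KO replicate 2. Under OGD, 4, they were 12 as deposited, 1 with a prior count of 0.5, 2 with total-read scaling, 2 with the replicate block, 2 with the batch covariate, 1 with 5 batch labels and 1 to 7 leaving out a library, the lowest without OGD_KO replicate 1 or 2 and the highest without OGD_KO replicate 5. No member was called between genotypes or for the interaction under any of these. Replicate numbers of different genotypes share no culture.

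Uncalled differences near 0 changed sign. In normoxia Dusp8 was -0.02 with total-read scaling, -0.02 in batch 3 and -0.03 with 5 batch labels. Under OGD Dusp6 was -0.01 with total-read scaling, -0.02 with the batch covariate and -0.12 in batch 3, Spry4 0.01 as deposited and Dusp1 0.04 in batch 3; the interaction of Spry4 was -0.01 in batch 3. Leaving out a library, the normoxia differences ranged from -0.1 to 0.24 for Dusp1, -0.17 to 0.05 for Dusp16, -0.25 to 0.03 for Dusp5, -0.06 to 0.08 for Dusp8, -0.01 to 0.07 for Spred1 and -0.03 to 0.07 for Spry2. Under OGD they ranged from -0.18 to 0.05 for Dusp1, -0.24 to 0.09 for Dusp4, -0.04 to 0.22 for Dusp5, -0.12 to 0.13 for Dusp6, -0.17 to 0.12 for Spred1 and -0.13 to 0.11 for Spry4. Leaving out a culture, the interaction ranged from -0.29 to 0.16 for Dusp1, -0.38 to 0.02 for Dusp14, 0.07 to 0.44 for Dusp5, -0.14 to 0.1 for Dusp16, -0.18 to 0.02 for Dusp6, -0.23 to 0.02 for Dusp8, -0.22 to 0.14 for Spred1 and -0.04 to 0.24 for Spry4.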
